A study of Rattus norvegicus with 8 samples.

Results

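The genes described here are those of antigen presentation by the major histocompatibility complex (MHC) and of the interferon response, across 3 stages of rat spermatogenesis. They were chosen by symbol alone: all genes of the deposited table whose symbols begin with RT1- (the rat MHC), Irf, Ifit, Ifi with a digit, Oas or Stat with a digit from 1 to 6, or Tapbp, together with Mx1, Mx2, B2m, Tap1, Tap2 and Cd74. The pattern found 93 of 16764 genes. Tap2 was not analysed here. The pattern also takes in class II genes (RT1-Ba, RT1-Bb, the RT1-D genes and Cd74) and the IRF2-binding protein genes Irf2bp1 and Irf2bpl, which are no interferon regulatory factors, so the set is wider than class I.

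RNA from Brown Norway rats was sequenced in 3 groups of 2 libraries each. USg libraries came from a cultured spermatogonial stem cell line expanded as undifferentiated spermatogonia in SG medium, with 0 h in SD medium. DSg libraries came from the same line 7 days after plating on laminin, with 120 h in SD medium, which holds all-trans-retinoic acid and neuregulin-1 and induces differentiating spermatogonia. Spc libraries came from a primary testis cell culture, from germ cells that bound neither laminin, collagen-I nor plastic in a negative selection, with 2.5 days in DMEM:Ham's F12 medium with 10% fetal bovine serum; the labels call them enriched for primary spermatocytes. USg and DSg rest on 1 line, and the sample titles of both carry T120, so their match in time is unsure. Spc differed from them in source, selection and medium as well as in stage, and in DSg the medium, laminin and days in culture changed together, so these cannot be told apart. The labels speak of replicate cultures of the line and do not say whether the Spc libraries came from separate animals, so the p-values measure only the spread between these samples. A further 2 samples of Foxa2 chromatin immunoprecipitation were not analysed here.

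MHC class I molecules pair a heavy chain with the light chain beta-2-microglobulin and carry peptides, pumped into the endoplasmic reticulum by the transporter TAP and loaded with the help of tapasin, to the cell surface for cytotoxic T cells. Interferons bind receptors that signal through Janus kinases to STAT proteins; STAT complexes with Irf9 bind the interferon-stimulated response element (ISRE) and STAT dimers bind the gamma-activated site (GAS), which switches on antiviral genes such as Mx, Oas and Ifit and the class I pathway itself. Germ cells within the seminiferous tubule are known for low surface class I, and the tubule's inner compartment for its shelter from immune cells.

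The upstream sequences of 7 members show what these elements look like. Of these, 6 were picked because they hold a match: Ifitm3, Ifitm2, B2m and Irf7 were higher in Spc, and Tapbp and Irf1 lower in Spc than in USg. Mx1, also higher in Spc, is shown because it holds none. The sequences are the 250 bases before the annotated start in RefSeq (build GRCr8), written 5′ to 3′ on the gene's strand. Capitals mark matches to the ISRE, searched as GAAA, then NN for any 2 bases, then GAAA, or to the GAS, searched as TTCNNNGAA, both on either strand.

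Ifitm3, chr1:205541759-205542008, minus strand: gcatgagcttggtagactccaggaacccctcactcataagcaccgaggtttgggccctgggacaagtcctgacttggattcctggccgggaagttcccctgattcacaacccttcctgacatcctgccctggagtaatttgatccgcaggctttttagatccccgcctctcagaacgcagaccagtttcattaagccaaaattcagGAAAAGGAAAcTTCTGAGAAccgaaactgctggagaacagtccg
Ifitm2, chr1:205482349-205482598, minus strand: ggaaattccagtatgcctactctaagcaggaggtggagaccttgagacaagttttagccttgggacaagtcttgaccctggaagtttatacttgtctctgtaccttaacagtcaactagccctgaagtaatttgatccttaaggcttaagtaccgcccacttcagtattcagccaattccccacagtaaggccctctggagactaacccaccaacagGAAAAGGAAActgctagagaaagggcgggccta
B2m, chr3:129549080-129549329, plus strand: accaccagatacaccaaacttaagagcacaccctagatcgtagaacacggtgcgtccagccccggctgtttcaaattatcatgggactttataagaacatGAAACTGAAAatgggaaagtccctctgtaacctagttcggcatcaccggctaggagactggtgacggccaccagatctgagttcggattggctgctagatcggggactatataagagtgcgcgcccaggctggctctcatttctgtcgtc
Irf7, chr1:205800024-205800273, minus strand: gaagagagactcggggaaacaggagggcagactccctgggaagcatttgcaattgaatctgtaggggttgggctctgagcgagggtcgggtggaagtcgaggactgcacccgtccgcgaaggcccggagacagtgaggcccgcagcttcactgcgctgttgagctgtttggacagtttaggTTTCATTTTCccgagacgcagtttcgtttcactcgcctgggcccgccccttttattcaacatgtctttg
Tapbp, chr20:4967878-4968127, minus strand: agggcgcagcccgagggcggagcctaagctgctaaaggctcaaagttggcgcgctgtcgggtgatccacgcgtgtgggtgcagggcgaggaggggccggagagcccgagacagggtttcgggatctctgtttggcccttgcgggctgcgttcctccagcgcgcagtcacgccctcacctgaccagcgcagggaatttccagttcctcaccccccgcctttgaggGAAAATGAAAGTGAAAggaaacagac
Irf1, chr10:38417685-38417934, plus strand: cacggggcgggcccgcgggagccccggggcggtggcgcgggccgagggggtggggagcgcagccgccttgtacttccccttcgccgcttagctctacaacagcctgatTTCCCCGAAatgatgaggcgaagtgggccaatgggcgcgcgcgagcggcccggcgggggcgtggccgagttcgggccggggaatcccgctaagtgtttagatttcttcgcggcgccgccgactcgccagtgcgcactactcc
Mx1, chr11:50294607-50294856, minus strand: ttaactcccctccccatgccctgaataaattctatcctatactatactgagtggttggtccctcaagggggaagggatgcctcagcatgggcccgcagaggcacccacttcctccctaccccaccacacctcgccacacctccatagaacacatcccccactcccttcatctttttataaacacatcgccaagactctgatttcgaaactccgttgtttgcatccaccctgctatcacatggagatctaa

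The Ifitm3 sequence held an ISRE match whose last base lay 35 bases upstream of the start and a GAS match with its last base at 25, and Ifitm2 an ISRE match at 24. B2m had an ISRE match ending 141 bases upstream. In Irf7 the match was on the opposite strand, ending at 60. Tapbp held 2 overlapping ISRE matches, ending at 17 and 11, and Irf1 a GAS match at 134. Neither Mx1 nor RT1-T24-3, both higher in Spc, held a match to either element in this window. Of all 27457 RefSeq promoters of the same length, 3.29% held an ISRE match and 7.52% a GAS match. Promoters were found by symbol for 75 of the 93 members, and 16 of these (21.3%) held an ISRE match and 11 (14.7%) a GAS match. A match describes the letters and shows no binding. Only exact matches were counted, so near matches were missed.

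Total counts ranged from 2657291 to 5697165 per library. The share of ribosomal RNA was 7.81% in USg 1, 12.4% in DSg 1 and at most 0.734% elsewhere. In DSg 2, 96.7% of 1045 olfactory receptor genes had a count, against 23.3% to 64.1% in the other libraries. DSg 2 also held the highest level for 79.6% of all 4554 genes below the filter on low counts. Low counts in DSg 2 therefore stand on a higher background. Replicates differed more in the line than in Spc: over all genes tested, the SD of their log2 ratio was 0.95 in USg, 0.95 in DSg and 0.43 in Spc, and over the members it was larger in each group. Levels are CPM, the gene's count over the library total scaled by the TMM factor of edgeR, not divided by gene length, so they are compared between libraries and not between genes. The synaptonemal complex gene Sycp3, a spermatocyte marker, had 242 and 299 CPM in USg, 206 and 137 CPM in DSg and 3154 and 3509 CPM in Spc.

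Several sets of somatic testis cell markers were higher in Spc. Of all genes tested, 17.9% were higher and 16.6% lower in Spc than in USg. Against DSg, 14.8% were higher and 11.7% lower. Of 11 tested peritubular and fibroblast markers, 8 were higher in Spc than in USg and 9 higher than in DSg. Their summed level was 488 to 1174 CPM in USg, 699.6 to 934 CPM in DSg and 3608 to 3695 CPM in Spc. Col3a1, Fn1 and Dcn held most of it in Spc, and Fn1 was the highest of the list in each library of the line. Of 11 Sertoli markers tested, 8 were higher in Spc in each comparison, with sums of 627 to 668 CPM in USg, 394 to 578 CPM in DSg and 2717 to 2901 CPM in Spc. Clu, Ctsl and Tf held most of it in Spc, and Clu and Ctsl were also the highest of the list in each library of the line. Sox9 was not called in Spc vs USg, with 82.2 and 30.6 CPM in USg and 50.3 and 45.1 CPM in Spc. The Leydig sum was 5.40 to 5.70 CPM in USg, 10.1 to 24.2 CPM in DSg and 164 to 176 CPM in Spc. Star made up 159 and 169 CPM of it in Spc. Of 3 Leydig markers tested, 1 was higher and 0 lower in Spc than in USg, and 1 was higher and 1 lower than in DSg. The higher one was Star in both. The lower one was Cyp11a1, with 6.06 and 5.92 CPM in DSg and 0.788 and 1.09 CPM in Spc. Of 14 macrophage and leukocyte markers tested, 7 were higher and 1 lower in Spc than in USg, and 3 were higher and 0 lower than in DSg. Their sums were 71.8 to 92.6 CPM in USg, 35.6 to 87.8 CPM in DSg and 136 to 156 CPM in Spc. Lymphocyte markers summed to 44.2 to 47.1 CPM in USg, 47.7 to 64.1 CPM in DSg and 30.7 to 32.9 CPM in Spc. Of 5 lymphocyte markers tested, 1 was lower and 0 higher in Spc than in USg, and the same held against DSg. The lower one was Cd3e, with 23.9 and 18.9 CPM in USg and 1.38 and 2.83 CPM in Spc. Lck, not called, had 4.24 and 9.26 CPM in USg and 16.8 and 17.2 CPM in Spc. Of 8 endothelial markers tested, 4 were lower and 1 higher in Spc than in USg, and 2 were lower and 0 higher than in DSg. The part of these cells in the Spc results below was not tested, and in such bulk samples fewer cells of a type and less RNA per cell cannot be told apart.

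**Figure D1:**
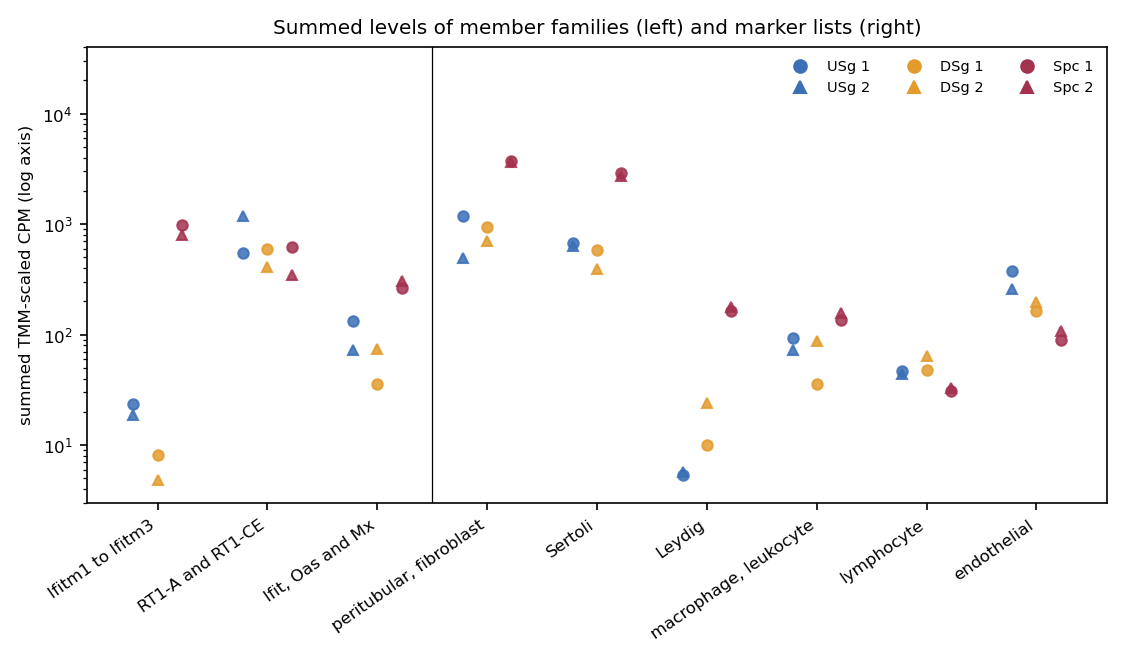
Summed TMM-scaled CPM (log axis) of 3 member families (left of the line) and 6 marker lists (right), 1 point per library, circles for replicate 1 and triangles for replicate 2. The 3 Ifitm genes summed to 18.7 to 23.5 CPM in USg, 4.85 to 8.08 CPM in DSg and 804 to 971 CPM in Spc, while the 16 RT1-A and RT1-CE genes overlapped between the stages.

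The largest differences lay between the primary cells and the line, in both directions. Of the 93 members, 68 passed the filter on low counts and were tested. In Spc against USg, 17 members were higher and 13 lower (44.1% of those tested) at an edgeR adjusted p under 0.05, where 34.5% of all 12210 genes tested passed. The median log2 fold change of the members was 0.11, against -0.04 over all genes. The libraries did not overlap in 29 members higher and 26 lower, where 37.1% and 35.3% of all genes did so. In Spc against DSg, 19 were higher and 5 lower (35.3%), where 26.5% of all genes passed, with medians of 0.19 and -0.03, which total-count scaling moved to -0.03 and -0.22. Here 26 higher and 24 lower did not overlap, where 36.6% and 34.6% of all genes did so. Nothing particular to the members as a set is read from these shares, and the members are described below by their roles.

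**Figure D2:**
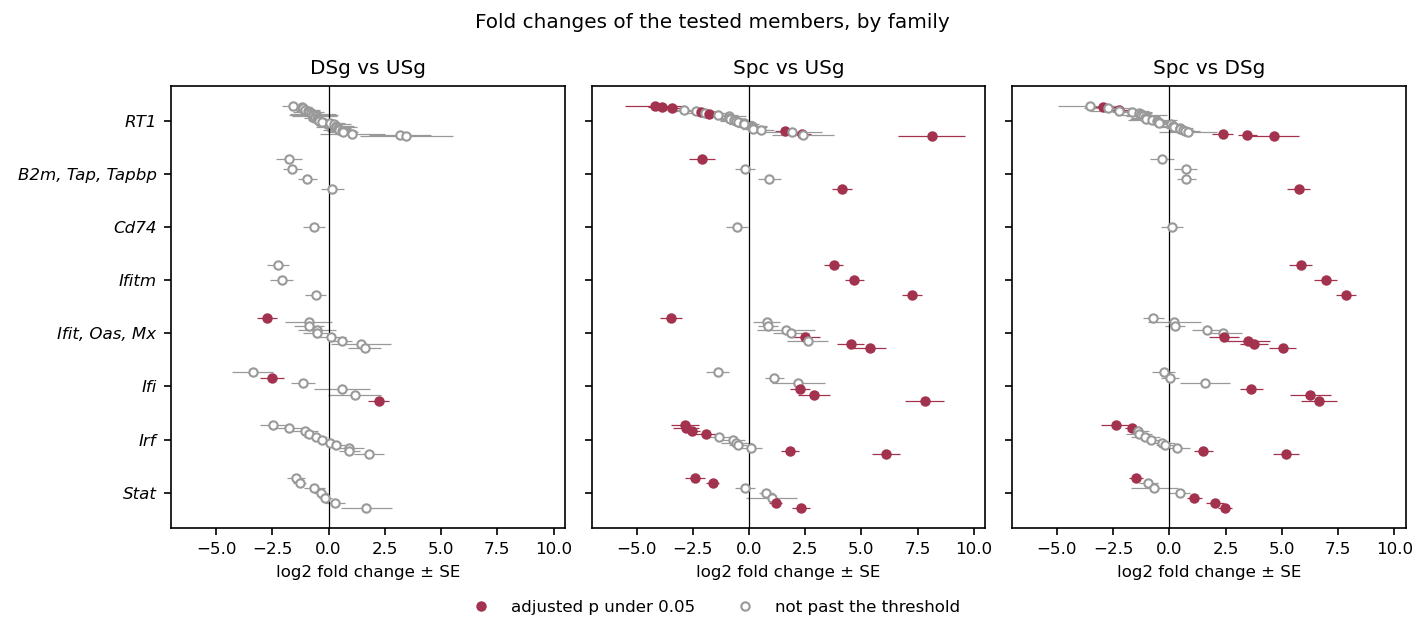
Log2 fold change ± SE (x axis) of each of the 68 tested members, grouped by family, in the 3 comparisons; filled points passed an edgeR adjusted p of 0.05. The 3 Ifitm genes and B2m stand at the right in both Spc panels, while the RT1 genes spread to both sides of 0 and few points are filled in DSg vs USg.

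The interferon-induced transmembrane proteins, which restrict the entry of viruses through cell membranes, were the family in which all tested members were higher in Spc. Ifitm3, in the mouse also a marker of early germ cells under the name fragilis, had 4.63 and 3.03 CPM in USg, 2.83 and 2.15 CPM in DSg and 638 and 497 CPM in Spc. Its level was low throughout the line and high in the primary cells, and the groups did not overlap. The log2 fold change was 7.25 ± 0.43 in Spc vs USg (edgeR adjusted p = 8.74e-05) and 7.84 ± 0.45 in Spc vs DSg (1.02e-04). Ifitm2 had 5.79 and 8.37 CPM in USg, 2.02 and 1.08 CPM in DSg and 206 and 165 CPM in Spc, a log2 fold change of 4.68 ± 0.41 in Spc vs USg (edgeR adjusted p = 1.88e-04) and 6.94 ± 0.49 in Spc vs DSg (1.33e-04). Ifitm1 had 13.1 and 7.30 CPM in USg, 3.23 and 1.62 CPM in DSg and 127 and 143 CPM in Spc, with log2 fold changes of 3.76 ± 0.44 and 5.84 ± 0.51 in the same order. In all 3 genes each Spc library lay above each library of the line. These 6 calls held under each alternative run. The peritubular, fibroblast and Sertoli marker sums given above were higher in the same libraries.

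The light chain of class I and its heavy chains differed in Spc. B2m, the light chain, had 228 and 485 CPM in USg, 101 and 133 CPM in DSg and 6334 and 6179 CPM in Spc. Its level in Spc was above every library of the line, by a log2 fold change of 4.13 ± 0.46 in Spc vs USg (edgeR adjusted p = 4.04e-04) and 5.74 ± 0.50 in Spc vs DSg (2.55e-04). The 16 RT1-A and RT1-CE genes, the class I heavy chain genes of the classical and the C/E regions, summed to 549 and 1179 CPM in USg, 595 and 407 CPM in DSg and 619 and 348 CPM in Spc. These sums overlapped between each pair of stages, unlike the levels of B2m.

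Among single heavy chain genes, RT1-A1 had 139.7 and 273 CPM in USg, 208 and 127 CPM in DSg and 327 and 137 CPM in Spc, with all groups overlapping and no call. RT1-A2 had 234 and 573 CPM in USg, 155 and 111 CPM in DSg and 110.4 and 72.5 CPM in Spc. It was lower in Spc than in USg by a log2 fold change of -2.14 ± 0.46 (edgeR adjusted p = 0.00774), or -1.34 without USg 2, the library where it was highest. RT1-CE16 had 37.8 and 96.7 CPM in USg, 57.8 and 32.0 CPM in DSg and 55.6 and 39.8 CPM in Spc and was not called. RT1-CE3 and RT1-CE5 were lower in Spc than in USg. RT1-CE5 had 33.2 and 36.9 CPM in USg, 28.7 and 8.89 CPM in DSg and 2.37 and 2.39 CPM in Spc, a log2 fold change of -3.86 ± 0.61 in Spc vs USg (edgeR adjusted p = 0.00175) and -2.94 ± 0.60 in Spc vs DSg (0.00837), the second of which became -1.71 (0.0531) without DSg 1. RT1-CE3 had 26.2 and 48.8 CPM in USg, 20.6 and 32.0 CPM in DSg and 10.6 and 11.5 CPM in Spc, a log2 fold change of -1.77 ± 0.43 in Spc vs USg (edgeR adjusted p = 0.0136; 0.0841 without Spc 1 and 0.0669 without Spc 2). The other 11 tested RT1-A and RT1-CE genes were not called in any comparison. Reads of such near-identical genes may have been split or lost in counting: RT1-CE7 and RT1-CE11 differed by 1 count in all over the 6 libraries, so single RT1 values are uncertain.

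With all 6 libraries, none of the tested peptide loading partners among the members was called higher in Spc. Tap1, a subunit of the peptide transporter, had 10.0 and 24.0 CPM in USg, 12.1 and 26.7 CPM in DSg and 34.9 and 30.3 CPM in Spc and was not called (log2 fold change 0.90 ± 0.51 in Spc vs USg, edgeR adjusted p = 0.198), although without USg 2 the value was 1.71 (0.0242). Tapbp, tapasin, which holds empty class I molecules at the transporter, had 98.8 and 384 CPM in USg, 67.1 and 75.7 CPM in DSg and 65.8 and 48.1 CPM in Spc. It was lower in Spc than in USg, with a log2 fold change of -2.09 ± 0.56 (edgeR adjusted p = 0.0203). That call rested on USg 2, since without it the value was -0.78 (0.147). Tapbpl, a peptide editor related to tapasin, had 22.8 and 48.3 CPM in USg, 15.4 and 21.8 CPM in DSg and 27.8 and 35.5 CPM in Spc and was not called. Of 17 further genes of class I loading and the immunoproteasome, 3 were higher in Spc than in USg (17.6%, where 17.9% of all genes tested were). They were the chaperones Hspa5 (log2 fold change 1.47), Canx (1.28) and Calr (1.08). Hspa5 was also the only one to pass against DSg (1.43), which is 5.88% of the list, where 14.8% of all genes were higher. The interferon-inducible proteasome subunits Psmb8, Psmb9 and Psmb10 were not called in any comparison.

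Of the 22 RT1-M, N, S, T, O and Cl genes, not all of them tested, 2 were higher and 2 lower in Spc than in USg. Of all genes tested, 17.9% were higher and 16.6% lower in that comparison. The RT1-CE genes above are not part of this count. RT1-S3 had 10.8 and 8.55 CPM in USg, 3.23 and 5.39 CPM in DSg and 53.8 and 44.6 CPM in Spc, a log2 fold change of 2.36 ± 0.40 in Spc vs USg (edgeR adjusted p = 0.00244) and 3.47 ± 0.43 in Spc vs DSg (9.40e-04). RT1-T24-3 had 0 counts in both USg libraries, 0 and 2 counts in DSg and 38 and 45 counts in Spc. It was at least 23.5-fold higher in Spc than in USg, against a floor of 3 counts over the USg group, and 26.6-fold higher than in DSg (95% counting interval 7.13 to 223); the call against DSg was lost without Spc 1 or Spc 2 (0.0771 and 0.167). RT1-M3-1, whose mouse counterpart presents N-formylated peptides, had 29.7 and 54.5 CPM in USg, 20.2 and 17.5 CPM in DSg and 3.15 and 4.79 CPM in Spc, a log2 fold change of -3.41 ± 0.47 in Spc vs USg (edgeR adjusted p = 9.90e-04) and -2.24 ± 0.47 in Spc vs DSg (0.00881; 0.0594 without DSg 1 and 0.0860 without Spc 1). RT1-N1 held 1 and 0 counts in Spc, against 7 and 12 in USg, a ratio of 22.4 with USg higher (95% counting interval 3.56 to 929.8, edgeR adjusted p = 0.0394). The call was lost with total-count scaling (0.0535), with DESeq2 (0.0617) and with a replicate block (0.0615). It was also lost without USg 1, which leaves 1 library in that group, at a log2 fold change of -4.09, against -4.18 with all libraries. RT1-N1 cannot be told from RT1-N2, whose counts differed from it by 3 in all. RT1-N2 was not called in Spc vs USg (log2 fold change -2.90 ± 1.24, edgeR adjusted p = 0.101).

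No class II member exceeded 40.2 CPM in a library. RT1-Bb, a class II beta chain, had 8.49 and 15.5 CPM in USg, 5.25 and 8.62 CPM in DSg and 40.2 and 32.9 CPM in Spc and was higher in Spc, by a log2 fold change of 1.58 ± 0.44 vs USg (edgeR adjusted p = 0.0228) and 2.37 ± 0.46 vs DSg (0.00672). The call against USg was lost without Spc 1 (0.153) or Spc 2 (0.0570). Cd74, the invariant chain that escorts class II molecules, had 10.8 and 14.2 CPM in USg, 6.06 and 9.69 CPM in DSg and 7.29 and 10.0 CPM in Spc and was not called. Of 11 tested genes of class II regulation and processing, 3 were higher in Spc than in USg and 1 lower (27.3% and 9.09%, where 17.9% and 16.6% of all genes were). The lysosomal proteases Ctsl (log2 fold change 2.30) and Ctsb (1.92) and the CCAAT-binding subunit Nfyc (1.48) were the higher ones and Nfya (-1.78) the lower. The master regulator of class II, Ciita, was not called, at 3.55 and 1.09 CPM in Spc, against 4.24 and 7.66 CPM in USg.

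The interferon regulatory factors split. Irf7, itself induced by interferon and an amplifier of interferon alpha production, had 2.32 and 1.78 CPM in USg, 1.21 and 5.92 CPM in DSg and 149 and 129 CPM in Spc. Its log2 fold change was 6.10 ± 0.62 in Spc vs USg (edgeR adjusted p = 2.75e-04) and 5.18 ± 0.58 in Spc vs DSg (5.77e-04). Irf3, which virus sensors activate, had 34.7 and 61.6 CPM in USg, 42.0 and 78.9 CPM in DSg and 167 and 178 CPM in Spc. It was higher in Spc by 1.83 ± 0.41 vs USg (edgeR adjusted p = 0.00958) and 1.51 ± 0.41 vs DSg (0.0264), the second lost without DSg 1, Spc 1 or Spc 2 (0.0979, 0.0636 and 0.0833) and with total-count or upper quartile scaling (0.0749 and 0.0521).

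The other regulatory factors that passed were lower in Spc. Irf1, an activator of class I genes, had 189 and 245 CPM in USg, 140.2 and 96.4 CPM in DSg and 37.1 and 37.9 CPM in Spc. The stages stood in that order without overlap, with log2 fold changes of -2.54 ± 0.34 in Spc vs USg (edgeR adjusted p = 8.62e-04) and -1.66 ± 0.33 in Spc vs DSg (0.00738; 0.0644 to 0.125 without DSg 1, Spc 1 or Spc 2), while DSg vs USg did not pass (-0.88 ± 0.32, 0.193). Irf2, which competes with Irf1 for its sites, had 30.9 and 11.0 CPM in USg, 6.87 and 5.39 CPM in DSg and 3.35 and 2.39 CPM in Spc, a log2 fold change of -2.83 ± 0.62 in Spc vs USg (edgeR adjusted p = 0.00858). Irf8, known from myeloid and B cells, had 14.3 and 41.7 CPM in USg, 14.5 and 23.2 CPM in DSg and 8.47 and 6.31 CPM in Spc, a log2 fold change of -1.93 ± 0.55 in Spc vs USg (edgeR adjusted p = 0.0260) that became -0.93 (0.172) without USg 2 and lost its call without Spc 2 (0.0950). Irf4, a factor of lymphocytes, had 3.09 and 2.85 CPM in USg, 8.08 and 12.4 CPM in DSg and 1.38 and 2.61 CPM in Spc and was lower in Spc vs DSg by -2.36 ± 0.67 on the log2 scale (edgeR adjusted p = 0.0306; 0.0829 to 0.356 without DSg 2, Spc 1 or Spc 2). Irf2bpl had 65.2 and 210.1 CPM in USg, 25.1 and 24.5 CPM in DSg and 26.8 and 13.1 CPM in Spc, a log2 fold change of -2.79 ± 0.58 in Spc vs USg (edgeR adjusted p = 0.00647), or -1.69 without USg 2. Irf9, the DNA-binding partner of STAT proteins, was between 14.4 and 25.9 CPM in every library and was not called.

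Stat2, which signals for interferon alpha, was lower in Spc. Stat2 had 170.2 and 203 CPM in USg, 185 and 151 CPM in DSg and 63.5 and 57.5 CPM in Spc. Each Spc library was below each library of the line, with log2 fold changes of -1.62 ± 0.30 in Spc vs USg (edgeR adjusted p = 0.00385; 0.0669 without Spc 1 and 0.102 without Spc 2) and -1.48 ± 0.30 in Spc vs DSg (0.00811; 0.0639 to 0.193 without DSg 1, Spc 1 or Spc 2).

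Stat3, which signals for interleukin-6 and related cytokines, had 119 and 112 CPM in USg, 52.1 and 42.5 CPM in DSg and 286 and 237 CPM in Spc. It was lowest in DSg and highest in Spc without overlap, with log2 fold changes of 1.18 ± 0.30 in Spc vs USg (edgeR adjusted p = 0.0149; 0.285 without Spc 1 and 0.128 without Spc 2) and 2.47 ± 0.31 in Spc vs DSg (9.80e-04). Stat6, the factor of interleukin-4 signalling, had 12.3 and 6.59 CPM in USg, 11.3 and 11.0 CPM in DSg and 49.7 and 42.2 CPM in Spc, a log2 fold change of 2.31 ± 0.42 in Spc vs USg (edgeR adjusted p = 0.00340) and 2.04 ± 0.41 in Spc vs DSg (0.00797; 0.0529 without DSg 2). Stat5b, a factor of growth hormone and cytokine signalling, had 45.9 and 103 CPM in USg, 29.1 and 25.9 CPM in DSg and 14.2 and 14.4 CPM in Spc and was lower in Spc than in USg by -2.39 ± 0.44 (edgeR adjusted p = 0.00360). Stat4 and Stat5a were not called in any comparison.

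**Figure D3:**
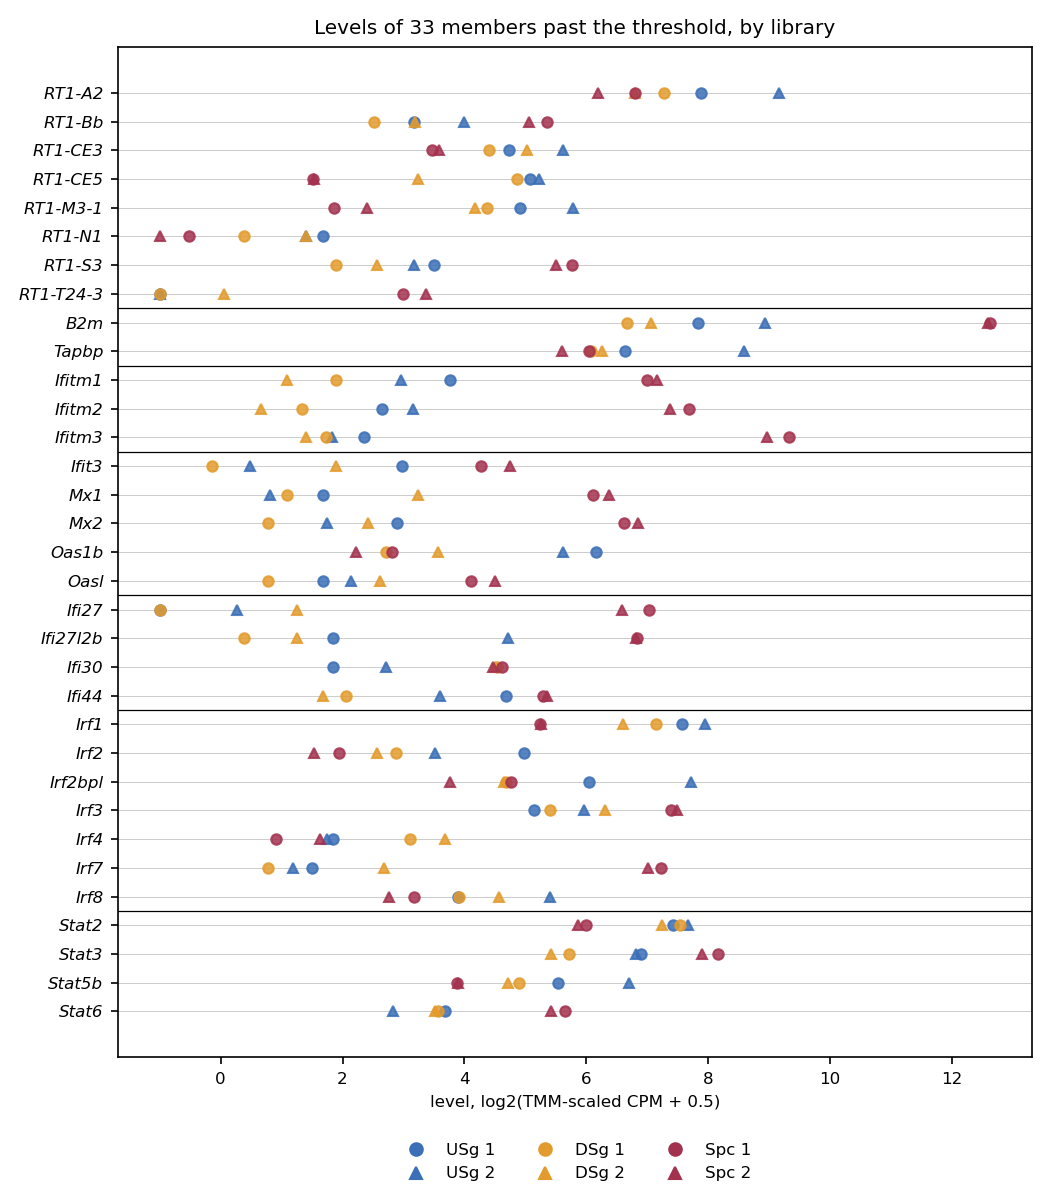
Levels of 33 of the 34 members past the threshold in any comparison, as log2(TMM-scaled CPM + 0.5), 1 point per library, by family from the RT1 genes at the top to the STAT genes. Spc points lie to the right of the line's in B2m, the Ifitm and Mx genes, Ifi27 and Irf7 and to the left in RT1-CE5, RT1-M3-1, Irf1 and Stat2.

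Of 9 tested Ifit, Oas and Mx genes, the antiviral effectors, 3 were higher and 1 lower in Spc than in USg, and 4 were higher in Spc than in DSg. Against USg that was 33.3% and 11.1%, where 17.9% and 16.6% of all genes were higher and lower. Against DSg it was 44.4%, where 14.8% of all genes were higher. Mx1, a dynamin-like antiviral GTPase, had 2.70 and 1.25 CPM in USg, 1.62 and 8.89 CPM in DSg and 68.2 and 82.5 CPM in Spc, a log2 fold change of 5.36 ± 0.72 in Spc vs USg (edgeR adjusted p = 8.77e-04) and 3.76 ± 0.64 in Spc vs DSg (0.00368). Its relative Mx2 had 6.95 and 2.85 CPM in USg, 1.21 and 4.85 CPM in DSg and 97.8 and 115 CPM in Spc, with log2 fold changes of 4.53 ± 0.60 and 5.03 ± 0.62 in the same order. Both were far above all libraries of the line. Ifit3, of a family that binds viral RNA, had 7.33 and 0.890 CPM in USg, 0.404 and 3.23 CPM in DSg and 18.9 and 26.3 CPM in Spc and passed against DSg, not against USg (log2 fold change 3.50 ± 0.97, edgeR adjusted p = 0.0284; 0.0534 with total-count scaling, 0.103 without DSg 1, and 5.70 with 0.0598 without DSg 2). Ifit2 lay at 19.9 and 20.7 CPM in Spc, against 10.8 and 1.25 CPM in USg, and was not called.

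The oligoadenylate synthetases make the activator of RNase L. Oasl, a relative without that activity in human cells, had 2.70 and 3.92 CPM in USg, 1.21 and 5.65 CPM in DSg and 16.8 and 22.2 CPM in Spc, a log2 fold change of 2.51 ± 0.66 in Spc vs USg (edgeR adjusted p = 0.0179; 0.0797 without Spc 2) and 2.42 ± 0.66 in Spc vs DSg (0.0265; 0.0705 and 0.0506 with total-count and upper quartile scaling, 0.0590 without DSg 1, 0.0977 without Spc 2, and a fold change of 3.97 without DSg 2). Oas1b, whose mouse counterpart sets resistance to flaviviruses, had 70.6 and 48.4 CPM in USg, 6.06 and 11.3 CPM in DSg and 6.50 and 4.14 CPM in Spc. It was highest in USg without overlap, and in Spc vs USg its log2 fold change was -3.47 ± 0.47 (edgeR adjusted p = 9.26e-04). Oas1a, Oas2 and Oasl2 were not called in any comparison.

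The Ifi genes, unrelated genes named for their induction, included large differences. Ifi27, a small protein of mitochondrial membranes, had 0 and 0.712 CPM in USg, 0 and 1.88 CPM in DSg and 129.7 and 95.4 CPM in Spc. All counts in USg and DSg came from 1 library of each (4 counts in USg 2 and 7 in DSg 2), so the fitted log2 fold changes of 7.81 ± 0.86 in Spc vs USg (edgeR adjusted p = 3.73e-04) and 6.65 ± 0.80 in Spc vs DSg (7.66e-04) rest on them. Its relative Ifi27l2b had 3.09 and 25.8 CPM in USg, 0.808 and 1.88 CPM in DSg and 113 and 112 CPM in Spc, a log2 fold change of 2.89 ± 0.72 in Spc vs USg (edgeR adjusted p = 0.0148), or 5.19 without USg 2, and 6.27 ± 0.93 in Spc vs DSg (0.00206). Ifi35 and Ifi47 were not called in any comparison.

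In DSg against USg the set changed little that could be called. Of the 68 tested members 1 was higher, Ifi30, and 2 were lower, Oas1b and Ifi44 (4.41%), where 2.48% of all genes passed. Ifi30, a lysosomal thiol reductase that opens antigens for class II loading, had 22.6 and 22.1 CPM in DSg, against 3.09 and 6.05 CPM in USg, and it stayed at 24.0 and 21.6 CPM in Spc. Its log2 fold change was 2.22 ± 0.45 in DSg vs USg (edgeR adjusted p = 0.0424) and 2.25 ± 0.44 in Spc vs USg (0.00499). Oas1b had a log2 fold change of -2.74 ± 0.46 in DSg vs USg (edgeR adjusted p = 0.0250), and Ifi44, which restrains virus growth in human cells, one of -2.52 ± 0.52 (0.0445). Ifi44 had 3.64 and 2.69 CPM in DSg, against 25.1 and 11.6 CPM in USg; in Spc it had 38.6 and 40.5 CPM, a log2 fold change of 3.65 ± 0.52 vs DSg (0.00164).

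None of these 3 calls in DSg vs USg held under all alternatives. They were lost with total-count scaling (edgeR adjusted p 0.0550 to 0.0664), where 1.63% of all genes passed. They were also lost in a fit of only the 4 libraries compared (0.0541 to 0.150), where 0.825% passed. With DESeq2, without a filter and with a replicate block 12, 13 and 8 members passed, where 6.40%, 6.23% and 4.95% of all genes did so. Without DSg 1 or DSg 2, which leaves 1 library in that group, calls were lost across the whole table. The log2 fold changes were then 2.01 and 2.24 for Ifi30, -2.57 and -3.28 for Oas1b and -2.90 and -2.29 for Ifi44. Other members did not pass in the fit used throughout. The log2 fold change in DSg vs USg was -2.26 ± 0.50 for Ifitm2 (edgeR adjusted p = 0.0528), -2.08 ± 0.51 for Ifitm1 (0.0730), -1.29 ± 0.30 for Stat3 (0.0650), -1.61 ± 0.42 for B2m (0.0886) and -0.58 ± 0.46 for Ifitm3 (0.525). For Ifi27l2b it was -3.38 ± 0.92 (edgeR adjusted p = 0.0984) and for Irf2bpl -2.48 ± 0.58 (0.0636). Ifitm1, Ifitm2, Stat3, Ifi27l2b and Irf2bpl did pass with DESeq2, without a filter and with a replicate block. B2m passed with DESeq2 and without a filter. The libraries of the groups did not overlap in 8 members higher and 24 lower in DSg, where 21.2% and 21.1% of all genes tested did so. The median log2 fold change of the members was -0.51, against 0.01 over all genes, and 18 members (26.5%) had an unadjusted p under 0.05, as did 19.2% of all genes.

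Genes of the same pathway outside the pattern were given by lists, over which nothing was tested as a set. Of 14 interferon receptor and JAK-STAT genes none passed in DSg vs USg by edgeR (2 had an unadjusted p under 0.05). In Spc, 2 were lower than in USg (14.3%), and 2 were higher and 1 lower than in DSg (14.3% and 7.14%). Of all genes tested, 17.9% were higher and 16.6% lower in Spc than in USg, and 14.8% and 11.7% against DSg. Jak1, the kinase shared by the interferon receptors, had a log2 fold change of -1.21 in Spc vs USg, Ifnlr1, the lambda interferon receptor, one of -1.40, and Ifnar1, the alpha and beta receptor, one of 1.60 in Spc vs DSg. Of 25 further interferon-stimulated genes, 6 were higher and 7 lower in Spc than in USg, and 8 were higher and 4 lower in Spc than in DSg.

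Isg15, a ubiquitin-like protein, had 4.24 and 5.34 CPM in USg, 0.808 and 2.69 CPM in DSg and 51.8 and 52.0 CPM in Spc. The guanylate-binding protein gene Gbp5 had 0.772 and 0.712 CPM in USg, 1.21 and 4.58 CPM in DSg and 42.8 and 43.5 CPM in Spc. Against these, the nucleic acid sensor Zbp1 had 20.1 and 52.0 CPM in USg, 23.4 and 27.5 CPM in DSg and 3.15 and 3.92 CPM in Spc. The first 2 were higher in Spc without overlap and Zbp1 was lower, with log2 fold changes of 3.41, 5.82 and -3.36 in Spc vs USg. In DSg vs USg the kinase Eif2ak2, which halts translation on double-stranded RNA, was higher (1.88) and Gbp2 (-2.82), Lgals3bp (-2.48) and Shisa5 (-1.73) were lower. These calls were 16.0% of the 25 genes, where 2.48% of all genes tested passed. Of 14 tested nucleic acid sensing genes, 3 were higher and 3 lower in Spc than in USg (21.4% each way, where 17.9% and 16.6% of all genes were). Against DSg, 4 were higher and 1 lower in Spc (28.6% and 7.14%, where 14.8% and 11.7% of all genes were).

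The members below the filter were nearly silent. They were 25 genes: 19 RT1 genes, 5 Oas genes and Ifit1. The highest count of any of them was 23 in DSg 2 and 9 in any other library. Summed, they had 15.8 and 8.55 CPM in USg, 11.3 and 54.1 CPM in DSg and 7.69 and 11.5 CPM in Spc. DSg 2 held the highest level for 19 of the 25 (76.0%) and for 79.6% of all 4554 genes below the filter, the library with the olfactory receptor counts described above.

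**Figure D4:**
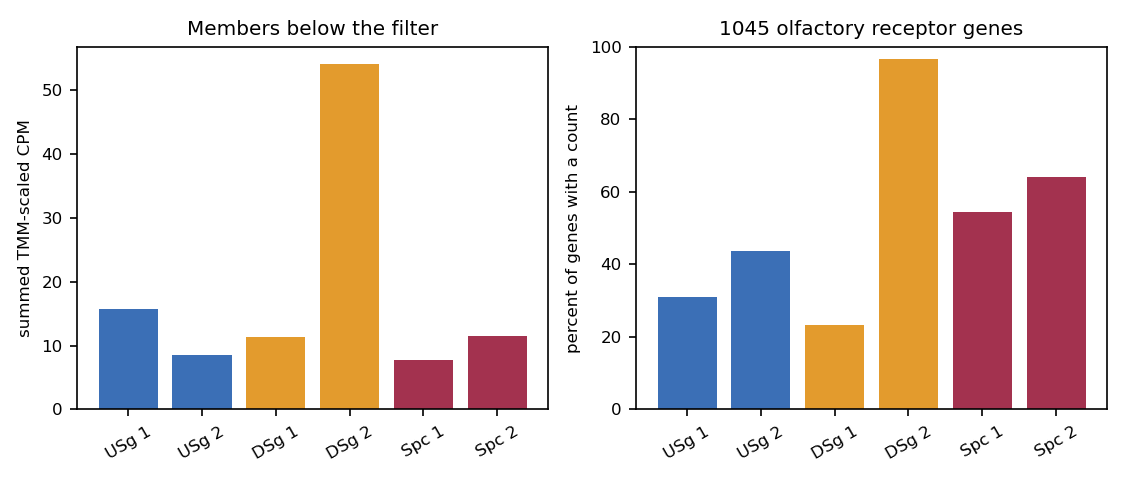
Left, summed TMM-scaled CPM of the 25 members below the filter in each library; right, percent of 1045 olfactory receptor genes with a count. Bars are single libraries, and DSg 2 is the highest in both panels, at 54.1 CPM and 96.7%.

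The element matches were set beside the calls. Of the members higher in Spc than in DSg, 15 had a promoter in RefSeq and 8 of these (53.3%) held an ISRE match, among them Ifitm2, Ifitm3, B2m and Irf7, while 0 of 5 with a promoter that were lower did. Against USg, 6 of 14 higher members (42.9%) and 2 of 11 lower members (18.2%) held a match, the lower ones being Tapbp and Oas1b. These shares are descriptions of a few genes, beside the 3.29% of all promoters and 14 of the 57 tested members with a promoter (24.6%). A promoter counted as without an ISRE match can still hold a near match. The sequences of RT1-CE5 and RT1-M3-1, both lower, and of RT1-A1, not called, held the letters TTTCACTT, which were not counted. Near matches were not searched in the other members. Oas1a, Oasl2, Tap1 and RT1-N3 also held an ISRE match and were not called in any comparison. A GAS match was found at 1 of the 15 higher members, Ifitm3, and at 2 of the 5 lower ones in Spc vs DSg, Irf1 and RT1-M3-1.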

How the data were processed

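Raw read counts per gene symbol for 6 RNA libraries were deposited by the authors, without normalization: the values are whole and library totals differ. Per the submitters' processing notes the tools were STAR 2.5.3a, featureCounts, Subread 1.4.6, edgeR 3.2.4, Bowtie2 2.2.3, Picard 1.127 and HOMER, with builds rn6 and rn5. Which aligner, build, annotation and strand setting made the counts is not given in the sources used here, nor is the library kit, so overlapping and antisense genes cannot be told apart.

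Samples were grouped by the cell type in the labels. All 6 libraries were fitted together in edgeR 4.0.16 (R 4.3.3, limma 3.58.1) with TMM factors, filterByExpr (minimum count 10, total 15) and the quasi-likelihood F-test, at 3 residual degrees of freedom. Of 16764 genes 12210 were tested, with two-sided p-values adjusted by Benjamini-Hochberg over all of them at a threshold of 0.05. An exact permutation test of a single value with 2 libraries against 2 cannot go below 0.333. The SE was taken as |log2 fold change|/√F. Ratios against 1 to 3 counts carry exact 95% intervals, and groups at 0 a floor of 3 counts over the group; both cover counting error only. Promoters came from RefSeq.

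The members and lists were chosen with earlier results of these data known. Named are 8 fixed genes (Ifitm3, B2m, Tap1, Tapbp, Cd74, Stat3, Irf1 and 1 that is not reported here), members past the threshold in a comparison, the 3 highest of each family by mean CPM and, of each list, up to 4 called genes of at least 5 CPM; members named as not called beside them were added after their values were seen. The alternatives were other scalings and filters, DESeq2 1.42.0, limma-voom, fits of 4 libraries, a replicate block, each library left out, USg 1 with DSg 1 left out, and ribosomal RNA genes left out. The fit was tested on simulated data.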

Additional observations from a re-analysis of the deposited data

How the results depend on the processing

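The count of 3 members called in DSg vs USg changed most. It was 0 with total-count scaling and in a fit of only the 4 libraries compared, 1 with limma-voom, 13 without a filter on low counts, 12 with DESeq2, and 0 to 15 when a library was left out (0 without DSg 1 or DSg 2, 5 without USg 2, 10 without Spc 1 or Spc 2 and 15 without USg 1). Upper quartile scaling gave 1 higher and 1 lower. In Spc vs USg and Spc vs DSg, where 30 and 24 members passed, fewer genes of the whole table passed when a library of either group was left out. A call lost in such a fit is therefore not read as particular to that gene. Leaving out USg 1 and DSg 1 together, which leaves 1 library in each group of the line and assumes that it varies like Spc, gave 37, 50 and 43 members, where 45.1%, 58.8% and 59.1% of all genes passed; the cause was not tested. With the replicate number as a replicate block 8 members passed in DSg vs USg, 32 in Spc vs USg and 28 in Spc vs DSg. The labels do not say that a number marks a pairing. Replicate differences correlated at 0.25 between USg and DSg, -0.27 between USg and Spc and 0.01 between DSg and Spc. The ribosomal RNA share was 7.81% and 12.4% in USg 1 and DSg 1, against 0.00377% and 0.0388% in USg 2 and DSg 2. Whether libraries of the same number shared a preparation was not tested. Of the calls, 0 of 3, 22 of 30 and 13 of 24 in the 3 comparisons held in every setting, and none changed sign.

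Uncalled values changed sign. With total-count and upper quartile scaling, which moved the median log2 fold change of all genes to 0.16 and 0.15 in DSg vs USg and to -0.22 and -0.25 in Spc vs DSg, Cd74 in Spc vs DSg was -0.11 and -0.12 and RT1-CE16 -0.04 and -0.09. Tap1 in DSg vs USg was -0.05 without a filter. With USg 1 and DSg 1 left out, Mx2 was 0.62 in DSg vs USg, RT1-A1 -0.26 in Spc vs USg and Cd74 -0.05 in Spc vs DSg. Leaving out single libraries, the log2 fold change in DSg vs USg ranged over -0.52 to 0.89 for Tap1, -0.20 to 0.73 for Irf3, -1.89 to 0.03 for Mx2, -0.16 to 2.09 for Mx1, -0.90 to 0.22 for RT1-A1, -1.28 to 0.20 for RT1-CE16 and -4.03 to 5.00 for Ifi27, whose group is at 0 at both ends. In Spc vs USg it ranged over -0.62 to 0.75 for RT1-A1, -1.06 to 0.35 for RT1-CE16 and -0.65 to 0.49 for Tapbpl. In Spc vs DSg it ranged over -0.24 to 1.05 for RT1-A1, -0.28 to 0.75 for RT1-CE16, -0.05 to 0.50 for Cd74 and -0.85 to 0.18 for Irf2bpl.

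With 2 libraries a group, a call that misses the threshold does not show that levels were alike. A member with few counts is limited by depth: 1 count is worth 0.178 to 0.404 CPM.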

Other observations

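The genes of the interferons themselves were near the floor of detection; they were looked at after their values were seen. The table held 6 of them, Ifna1, Ifna2, Ifna4, Ifnb1, Ifng and Ifnk, and none passed the filter on low counts. The highest count in any library was 9, for Ifnk in DSg 2, the library with the olfactory receptor counts. Ifnb1 had 3 and 3 counts in Spc, against 0 and 1 in USg, and Ifng had 4 and 2 counts in Spc, against 0 and 0 in USg. At these totals a difference in interferon RNA between the groups was not detectable.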
